A study of Mus musculus with 8 samples.

Results

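Malat1 and Neat1, 2 long noncoding RNAs of the cell nucleus, were followed in sorted mouse bone marrow progenitors with and without telomere dysfunction. Every probe set (a group of short array probes read as 1 value) to which the array's annotation gave Malat1 or Neat1 as its only gene symbol was taken. The 2 genes, of 18193 with such a probe set, were measured by 9 of 34945 single-symbol probe sets, 7 for Malat1 and 2 for Neat1. They are described 1 by 1. Both genes were chosen by their signals on these same arrays in the 4 groups, so their values are a description, with no test.

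The study compared G4/G5 TERTER/ER mice with G0 TERTER/+ mice in 2 cell types, common myeloid progenitors (CMP), which give rise to the myeloid lineages, and granulocyte-monocyte progenitors (GMP), their more committed descendants. TERTER is a telomerase reverse transcriptase gene fused to an estrogen receptor domain. G4/G5 mice carried it on both alleles and were of late generations with dysfunctional telomeres, and G0 mice, labelled normal, carried it on 1 allele beside a normal one, so all groups held the modified allele. All mice were male, on a mainly C576BL/6 background as the labels spell it, and their ages, matched within a pair of pools, are not stated. Each of the 4 groups (G4/G5 CMP, G0 CMP, G4/G5 GMP and G0 GMP) had 2 arrays, and each array held cells pooled from 4 mice. A value is therefore an average over animals, and the spread between the 2 pools of a group is the only replicate error. Nothing in the labels says whether the CMP and the GMP pool of 1 number shared their donor mice.

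Malat1 is an abundant RNA held in nuclear speckles, the bodies in which splicing factors are stored. Its mature end is cut by RNase P and protected by a triple helix rather than by a poly(A) tail, and the piece cut off becomes a small tRNA-like RNA. Neat1 is made as a short and a long form from 1 start site, and the long form is the scaffold of paraspeckles, bodies that hold RNA-binding proteins such as Nono and Sfpq. The genes lie beside each other, and the reference annotation (GRCm38.p6) places 0 annotated genes between them on chromosome 19.

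The start of Malat1 is shown since 5 of its probe sets were lower together in CMP and transcription factors are among the genes compared later. The RefSeq window at chr19:5802623-5802922 (GRCm38.p6, minus strand) covers 250 bases before the start of the gene and 50 after it, and 47% of its bases are G or C. Capitals mark ACGTG, the core letters bound by hypoxia-inducible factors, found 1 time on the strand shown, starting 43 bases before the start.
Malat1 promoter: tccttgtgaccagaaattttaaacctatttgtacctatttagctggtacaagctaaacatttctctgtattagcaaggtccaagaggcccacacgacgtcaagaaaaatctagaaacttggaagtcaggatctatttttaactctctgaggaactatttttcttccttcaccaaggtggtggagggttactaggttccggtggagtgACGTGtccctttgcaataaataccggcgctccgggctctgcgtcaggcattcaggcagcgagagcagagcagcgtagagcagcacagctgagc
Among 32851 promoter windows of this length, 19.6% held ACGTG on either strand. A search of both strands of the Malat1 window for 4 other motifs gave 0 matches. Of all windows, 13.6% held the TATA box letters TATAAA, 37.4% the letters CCAAT, 35.7% the GC box letters GGGCGG, and 7.15% the E-box letters CACGTG, which contain ACGTG. No such window of Neat1 is shown.

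The values are array intensities: signals of the Affymetrix MAS5 method, set by the authors so that each array has the same trimmed mean. Signals of different probe sets are not comparable, since each probe set binds with its own strength, so only differences are set side by side. A difference is on the log2(signal + 10) scale, which understates changes of dim probe sets, and its standard error (SE) comes from 1 limma fit over all 8 arrays with a mean per group. Probe sets entered the fit where the signal was 50 or more on at least 2 arrays. This held for 14743 probe sets, among them 6 of 7 for Malat1 and 1 of 2 for Neat1. Malat1 1427285_s_at reached 50 on 1 array and Neat1 1442881_at on 0, and their SEs come from the fit without this filter. The Malat1 pair 1418188_a_at and 1418189_s_at was designed from 1 shared sequence entry, as was the pair 1427285_s_at and 1452378_at, so the members of each pair are not separate measurements of the gene. In bulk RNA, fewer cells that hold a transcript and less of it per cell cannot be told apart.

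The arrays had median signals between 14.3 and 18.5, and between 31.6% and 35.2% of probe sets at 50 or more. Tert, the modified gene, had 2 probe sets with signals of at most 14.9 on any array, which checks no label. Markers of the granulocyte and monocyte progenitor were at 50 or more for 8 or 9 of 9 genes on every array. Their summed signal differed by genotype in CMP without overlap, at 26873 and 23674 in G4/G5 CMP, against 7063 and 14778 in G0 CMP. In GMP it was 37460.6 and 38120 in G4/G5, against 32889.7 and 32914.5 in G0. What part such a shift has in the Malat1 and Neat1 values was not tested. Of the 9 erythroid, megakaryocyte and stem-cell markers, 8 or 9 were at 50 or more on the CMP arrays, against 6 to 8 on the GMP arrays. Of the 7 B cell markers and the 7 T and NK cell markers, 1 each was at 50 or more on each array, Cd79b and Nkg7. Among 8 macrophage and dendritic markers 0 to 3 reached 50, and among 7 stromal and endothelial markers also 0 to 3. In CMP 2 arrays stood apart from their partner pool. G4/G5 CMP pool 1 had a summed signal of 67898 over 14 genes of maturing neutrophils, against 1164 in G4/G5 CMP pool 2. G0 CMP pool 2 had a summed signal of 7863 over 9 immediate early genes, which switch on within minutes of a stimulus or of handling, against 715 in G0 CMP pool 1. For the probe sets past the signal filter, a difference that moved by over 1.5 times or changed sign without 1 of these 2 arrays is also given without it.

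In CMP, Malat1 signal was lower in G4/G5 than in G0 on 5 of 7 probe sets with both arrays of each group apart, and overlapped on the other 2. The brightest probe set stood at 41.8% of its G0 signal. Among all 14743 probe sets tested, 18.5% had both G4/G5 CMP arrays below both G0 CMP arrays. The genes were chosen with these values known, so nothing is read from that share. The median difference over the 7 Malat1 probe sets was -1.04, beside -0.003 over all probe sets tested.

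The brightest probe set, Malat1 1418189_s_at, had signals of 1762 and 2256 in G4/G5 CMP pools 1 and 2, against 4320.2 and 5296 in G0 CMP pools 1 and 2. Every G4/G5 value was less than either G0 value, and the gap between the genotypes exceeded the gap within each. The log2 difference was -1.26 ± 0.16 (SE, n = 2 pools each), with -1.29 between pools numbered 1 and -1.23 between pools numbered 2. It came to -1.08 on removing G4/G5 CMP pool 1 and to -1.11 on removing G0 CMP pool 2.

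Malat1 1418188_a_at, from the same sequence entry, had 1605 and 1697 in G4/G5 CMP, against 2979 and 3874 in G0 CMP. The groups did not overlap, and the difference was -1.04 ± 0.18 (SE, n = 2 each). Malat1 1438403_s_at had 409.4 and 723.4 in G4/G5 CMP, against 1380.5 and 1382 in G0 CMP. The 2 G0 pools were nearly equal and the 2 G4/G5 pools were not, with a difference of -1.33 ± 0.24 that came to -0.92 without G4/G5 CMP pool 1.

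Malat1 1452378_at had 71.2 and 72.1 in G4/G5 CMP, against 164.6 and 253.1 in G0 CMP. Here it was the G0 pools that differed, and the difference was -1.39 ± 0.24 (SE, n = 2 each), the most negative of the 9 probe sets in this comparison. The dim Malat1 1427285_s_at, from the same entry as 1452378_at, had 22.5 and 12.6 in G4/G5 CMP, against 51.1 and 34.3 in G0 CMP. Its difference was -0.94 ± 0.31, again with no overlap, although 3 of these 4 signals lay below 50.

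The other 2 Malat1 probe sets did not separate the genotypes in CMP. Malat1 1429060_at had 320.9 and 180.0 in G4/G5 CMP, against 226.0 and 208.5 in G0 CMP. The G4/G5 pools lay on either side of the G0 pools, and the difference was 0.14 ± 0.29, or -0.26 without G4/G5 CMP pool 1 and 0.09 without G0 CMP pool 2. Malat1 1436202_at had 127.2 and 107.9 in G4/G5 CMP, against 92.8 and 376.9 in G0 CMP. Its highest value belonged to G0 CMP pool 2 alone, and the difference of -0.65 ± 0.50 became 0.31 without that pool and -1.60 without G0 CMP pool 1.

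Neat1 in CMP gave no common direction. Neat1 1428083_at, the brighter of its probe sets, had 554.0 and 260.8 in G4/G5 CMP, against 293.3 and 283.6 in G0 CMP. Pool 1 of G4/G5 was well above the other 3 arrays and pool 2 was the lowest of the 4. The difference was 0.39 ± 0.31 (SE, n = 2 each), and it came to -0.14 on removing G4/G5 CMP pool 1 and to 0.92 on removing pool 2. The dim Neat1 1442881_at had 28.5 and 27.4 in G4/G5 CMP, against 43.8 and 45.1 in G0 CMP. These groups did not overlap, at -0.52 ± 0.41, but all 4 signals were below 50.

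**Figure D1:**
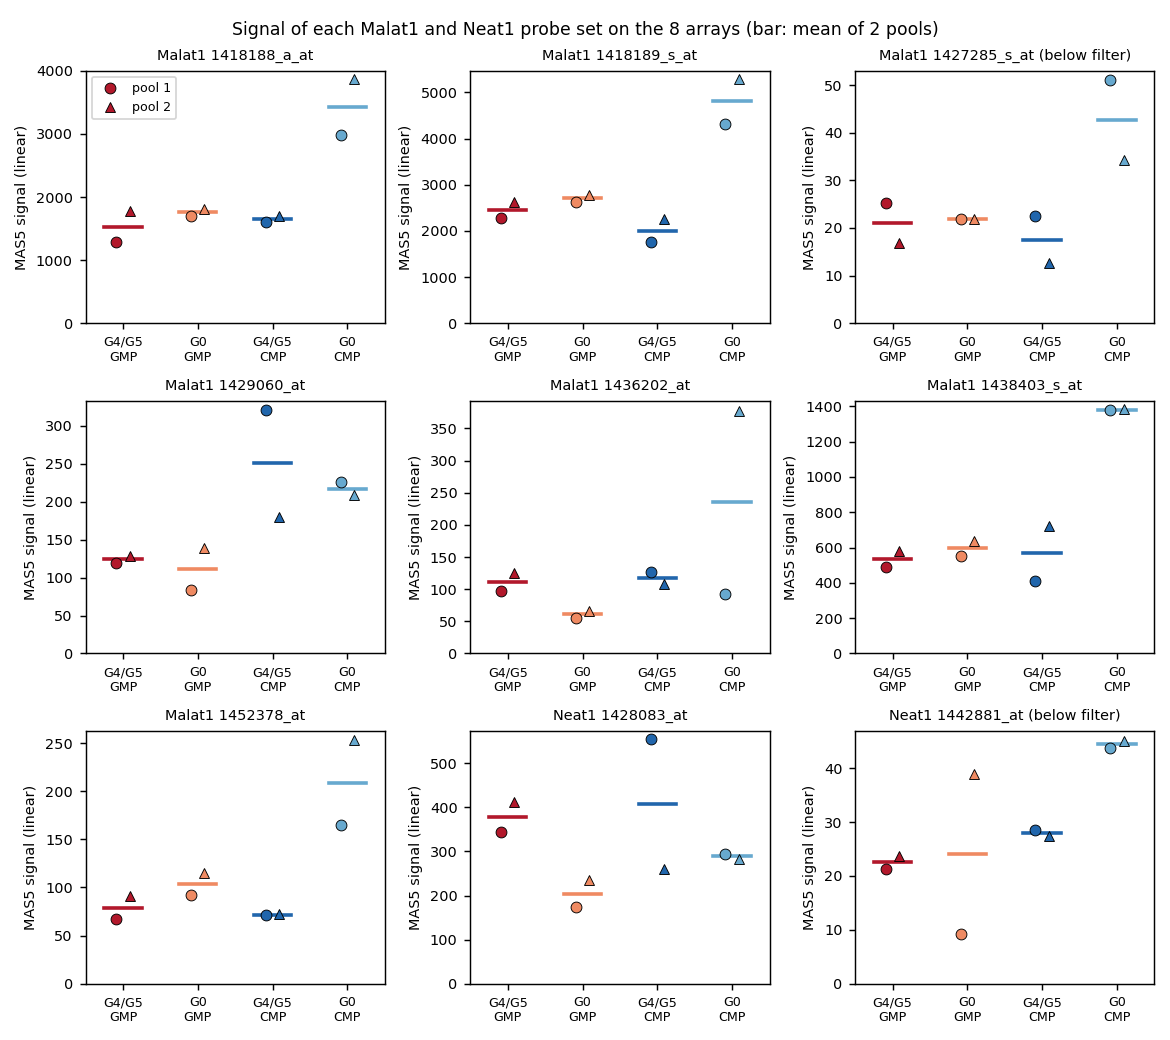
MAS5 signal (linear axis from 0, its range set per panel) of each Malat1 and Neat1 probe set on each of the 8 arrays, with the 2 pools of a group as points and their mean as a horizontal bar. For Malat1 1418189_s_at the G0 CMP arrays lie at 4320.2 and 5296, and the other 6 arrays between 1762 and 2788.

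In GMP, the genotype differences of the Malat1 probe sets lay between -0.35 and 0.76, and the brighter Neat1 probe set was higher in G4/G5. Of 7 Malat1 probe sets, 2 had both G4/G5 GMP arrays below both G0 GMP arrays, 1 had both above, and 4 overlapped. Over all probe sets tested, 27.2% were lower without overlap in this comparison and 26.5% higher, and nothing is read from these shares for the genes chosen. The median difference of the Malat1 probe sets was -0.15, beside -0.009 over all probe sets.

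Malat1 1418189_s_at had 2271 and 2621 in G4/G5 GMP, against 2627 and 2788 in G0 GMP. The highest G4/G5 value and the lowest G0 value were almost the same, and the difference was -0.15 ± 0.16 (SE, n = 2 each). Malat1 1452378_at had 66.7 and 91.2 in G4/G5 GMP, against 91.9 and 114.6 in G0 GMP, a difference of -0.35 ± 0.24. It too lay lower in G4/G5 by a gap that was small beside the spread between pools.

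Malat1 1436202_at went the other way, with 96.5 and 124.9 in G4/G5 GMP, against 55.6 and 66.8 in G0 GMP. Both G4/G5 pools were above both G0 pools, and the difference was 0.76 ± 0.50 (SE, n = 2 each). Overlap was seen for Malat1 1418188_a_at with 1293 and 1771 in G4/G5 GMP, against 1705 and 1814 in G0 GMP. Malat1 1438403_s_at likewise had 489.3 and 580.0 in G4/G5 GMP, against 549.3 and 639.7 in G0 GMP. The differences of these 2 were -0.22 and -0.15, and those of the remaining overlapping probe sets, 1427285_s_at and 1429060_at, were -0.05 and 0.18.

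Neat1 1428083_at had 344.7 and 412.9 in G4/G5 GMP, against 173.3 and 235.7 in G0 GMP. Both G4/G5 pools were above both G0 pools. The log2 difference was 0.87 ± 0.31 (SE, n = 2 each), with 0.95 between pools numbered 1 and 0.78 between pools numbered 2. Over the alternatives tried it stayed between 0.66 and 1.08. The dim Neat1 1442881_at had 21.2 and 23.7 in G4/G5 GMP, against 9.21 and 38.9 in G0 GMP. Its G0 pools enclosed both G4/G5 values, and its difference of 0.08 ± 0.41 had no clear sign.

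**Figure D2:**
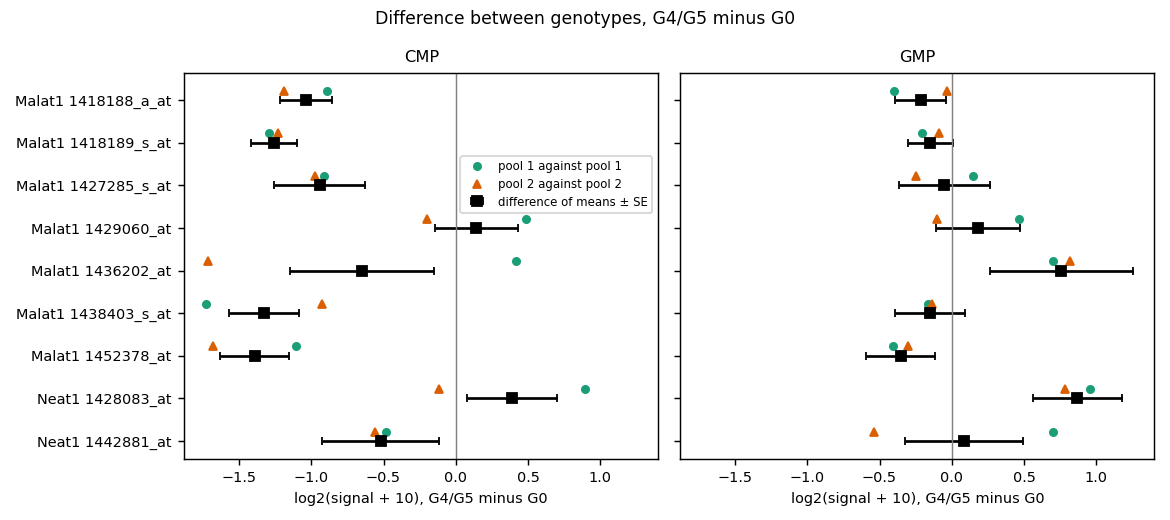
Difference in log2(signal + 10), G4/G5 minus G0, for each probe set in CMP (left) and GMP (right). Black squares with bars are differences of group means ± SE, and coloured points are the differences between pools of the same number. In CMP 5 Malat1 probe sets lie between -1.39 and -0.94, and in GMP the same 5 lie between -0.35 and -0.05.

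Between the cell types, all 9 probe sets were lower in GMP than in CMP in G0 mice, each without overlap. Over all probe sets tested, 35.7% were lower without overlap in this comparison. The differences ran from -1.49 for Malat1 1436202_at to -0.49 for Neat1 1428083_at, with a median of -0.93 over the 9, beside -0.05 over all probe sets. Both ends of that range moved by over 1.5 times with 1 array left out. The difference of Malat1 1436202_at came to -0.53 without G0 CMP pool 2, the array rich in immediate early genes, and to -2.45 without G0 CMP pool 1. That of Neat1 1428083_at came to -0.28 without G0 GMP pool 1. Malat1 1418189_s_at was at -0.82 ± 0.16 and Malat1 1438403_s_at at -1.21 ± 0.24 (SE, n = 2 each). Groups that do not overlap stay apart when any 1 of the 4 G0 arrays is left out, so leaving arrays out could not test that separation.

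In G4/G5 mice the same comparison gave mixed directions. Of the 9 probe sets, 2 were lower in GMP without overlap, 1 was higher and 6 overlapped, while 32.4% of all probe sets tested were lower and 27% higher without overlap. The median over the 9 was -0.03, beside -0.04 over all probe sets. Malat1 1418189_s_at was higher in G4/G5 GMP than in G4/G5 CMP by 0.29 ± 0.16 on the log2 scale. This came to 0.11 without G4/G5 CMP pool 1, the array rich in neutrophil markers, to 0.47 without G4/G5 CMP pool 2 and to 0.19 without G4/G5 GMP pool 2. Malat1 1418188_a_at, from the same sequence entry as 1418189_s_at, overlapped in G4/G5 at -0.12 ± 0.18. Malat1 1429060_at was lower in GMP in both genotypes, at -0.90 ± 0.29 in G4/G5 and -0.94 ± 0.29 in G0. The G4/G5 value came to -0.50 without G4/G5 CMP pool 1, and the G0 value to -0.60 without G0 GMP pool 1. Without that G4/G5 CMP array, Malat1 1438403_s_at was at -0.43 in place of -0.03 and Malat1 1436202_at at 0.02 in place of -0.09. Neat1 1428083_at differed by -0.01 ± 0.31 in G4/G5, with 344.7 and 412.9 in GMP between the 554.0 and 260.8 of CMP. That Neat1 difference came to 0.52 on removing G4/G5 CMP pool 1 and to -0.54 on removing pool 2.

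**Figure D3:**
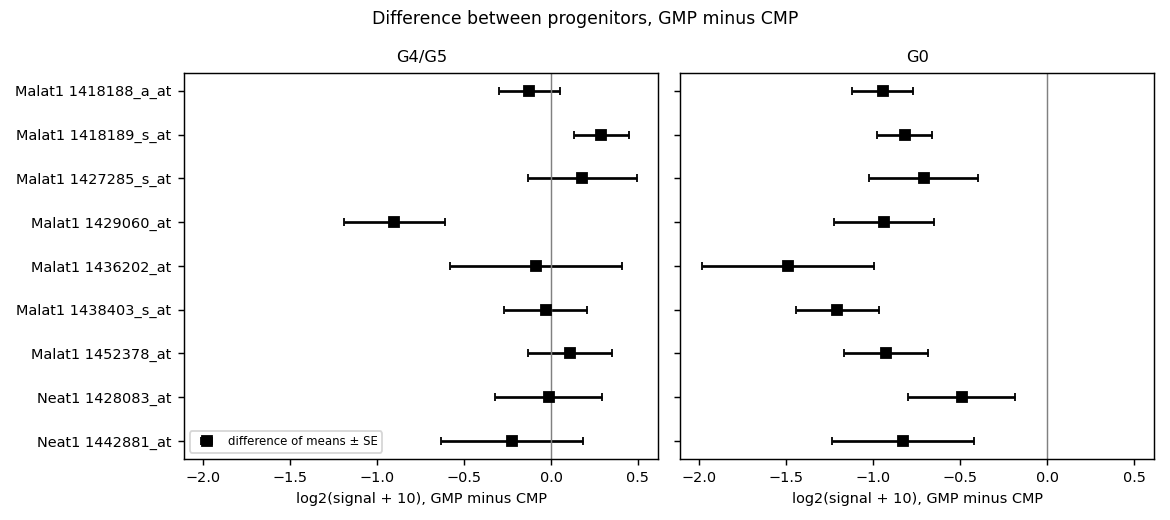
Difference in log2(signal + 10), GMP minus CMP, for each probe set in G4/G5 (left) and G0 (right), as differences of group means ± SE. All 9 squares lie left of 0 in G0, from -1.49 to -0.49, and those in G4/G5 lie between -0.90 and 0.29.

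The order of the 4 groups shows the same data by level. For Malat1 1418189_s_at the group means ran from G0 CMP, the highest, through G0 GMP and G4/G5 GMP to G4/G5 CMP, the lowest. No 2 neighbours in this order overlapped, but the lower steps were very narrow. The nearest values were 2627 in G0 GMP against 2621 in G4/G5 GMP, and 2271 in G4/G5 GMP against 2256 in G4/G5 CMP. Of all probe sets tested, 27.2% were lower in G4/G5 GMP than in G0 GMP without overlap. A share of 27% was higher in G4/G5 GMP than in G4/G5 CMP without overlap. The 4 other Malat1 probe sets that were lower in G4/G5 CMP also had G0 CMP first and G0 GMP second. Their lower places were held by the G4/G5 groups, which overlapped each other on all 4. The upper of these groups also overlapped G0 GMP on 1427285_s_at and 1438403_s_at. The lower of them overlapped G0 GMP on 1418188_a_at, 1427285_s_at and 1438403_s_at. Neat1 1428083_at instead had G4/G5 CMP and G4/G5 GMP first and second, overlapping each other, then G0 CMP and, lowest, G0 GMP, each apart from its neighbour. Its G4/G5 CMP place rests on pool 1, since pool 2 lay below both G0 CMP arrays.

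Probe sets of 1 gene were set against each other by the distance between their profiles over the 8 arrays, the root mean square difference of log2 values after each was centred on its own mean. From Malat1 1418189_s_at, the nearest member was 1452378_at at 0.17, with 0 of 8884 other genes nearer. Then came 1418188_a_at at 0.18 with 1 gene nearer, 1438403_s_at at 0.23 with 4, and the dim 1427285_s_at at 0.35 with 175. These are the 4 that were lower in G4/G5 CMP with it. Malat1 1436202_at at 0.64 and 1429060_at at 0.69 were farther than the median gene, which lay at 0.56. Neat1 1428083_at was at 0.78, farther than 8036 of the 8884 genes.

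From Neat1 1428083_at, the other Neat1 probe set was at 0.56, near the median gene at 0.54. The member nearest to it was Malat1 1429060_at at 0.43, with 1551 genes nearer. These distances describe the same 8 arrays in each case, and no test was made on them.

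**Figure D4:**
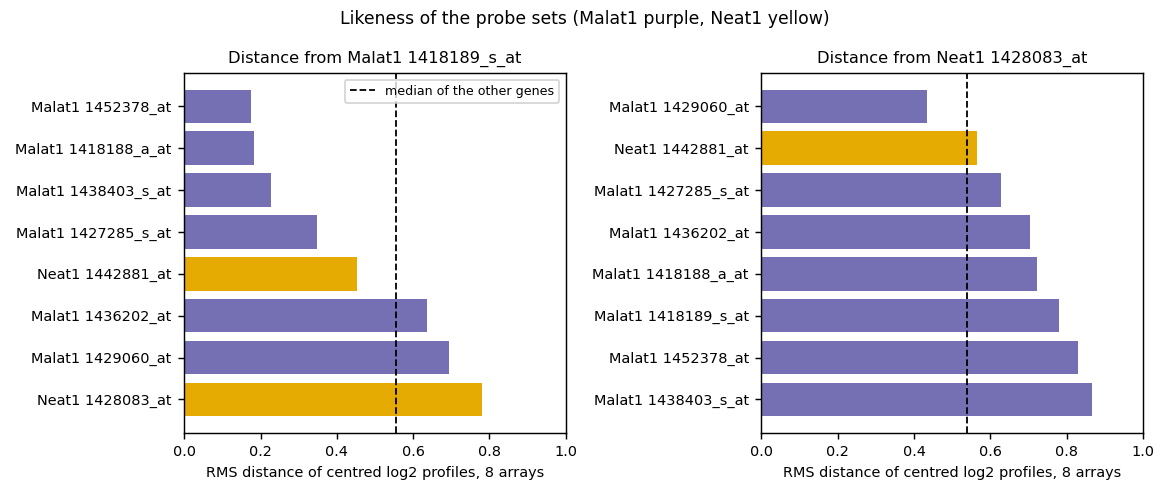
Root mean square distance of centred log2 profiles over the 8 arrays from Malat1 1418189_s_at (left) and from Neat1 1428083_at (right) to the other probe sets, with bars from 0 and the median of the other genes dashed. The other Malat1 probe sets 1452378_at, 1418188_a_at, 1438403_s_at and 1427285_s_at lie at 0.17 to 0.35 from it, and Neat1 1428083_at lies at 0.78.

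Of all genes past the signal filter, those most like Malat1 1418189_s_at were Gm5141, Timmdc1 (an assembly factor of respiratory complex I), Fgd1 (an exchange factor for Cdc42), Qtrt2 (a subunit of the enzyme that puts queuine into tRNA) and Sipa1l3, at distances of 0.18 to 0.23. Timmdc1 had 53.7 and 61.2 in G4/G5 CMP, against 128.6 and 200.3 in G0 CMP. Qtrt2 had 162.7 and 246.4 in G4/G5 CMP, against 344.7 and 347.1 in G0 CMP. Both were lower in G4/G5 CMP without overlap, but they were chosen for likeness to Malat1 1418189_s_at on these same arrays, so this adds no evidence. Those most like Neat1 1428083_at were Gtpbp8, Kdm7a (a histone demethylase), Pxmp4 (a peroxisomal membrane protein), Crbn (the substrate receptor of a ubiquitin ligase) and Gcnt1 (an enzyme of mucin-type sugar chains), at 0.15 to 0.20. Kdm7a, chosen in the same way, had 201.9 in G4/G5 CMP pool 1, where Neat1 also peaked, and at most 130.5 on the other 7 arrays.

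Neutrophil markers were highest on the 3 arrays where Neat1 1428083_at was highest, but did not follow it on the other 5. The 3 arrays with the highest Neat1 signals, 554.0 in G4/G5 CMP pool 1 and 344.7 and 412.9 in G4/G5 GMP, also had the 3 highest summed signals of the 14 neutrophil markers, 67898, 37427 and 40610. On the other 5 arrays the sum was 1164 in G4/G5 CMP pool 2, 4013 and 6162 in G0 GMP, and 1093 and 1267 in G0 CMP. Neat1 there was 260.8 in G4/G5 CMP pool 2, 173.3 and 235.7 in G0 GMP, and 293.3 and 283.6 in G0 CMP. Of these 5, the G0 GMP arrays thus had the highest sums and the lowest Neat1 signals. Camp, a granule peptide of maturing neutrophils, had 5902 in G4/G5 CMP pool 1 and 2229 and 3107 in G4/G5 GMP, against 10.4 and 120.0 in G0 GMP and at most 6.77 on the other 3 CMP arrays. Of the 14 markers, 14, 13 and 14 were at 50 or more on those 3 arrays, and 2 to 9 on the other 5. Their part in the Neat1 result was not tested. Malat1 1418189_s_at had 2256 in G4/G5 CMP pool 2, a pool with a neutrophil sum within the range of the G0 CMP arrays. That pool differed from them in the sum of granulocyte and monocyte progenitor markers, 23674 against 7063 and 14778. What part either marker group has in the Malat1 values was not tested.

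Immediate early genes moved with Malat1 1436202_at on 1 array. G0 CMP pool 2, where this probe set had 376.9, had 3266 for Fos, 1920 for Egr1 and 501.6 for Jun, against at most 136.6, 254.0 and 60.3 on the other 7 arrays. The summed signal of the 9 genes was 7863 there and between 487 and 911 on the other arrays, and 7 of the 9 reached 50, against 2 to 6. Fosb at 14.5 and Atf3 at 0.94 did not. Their part in the Malat1 1436202_at value was not tested. Malat1 1418189_s_at had 4320.2 in G0 CMP pool 1, where the immediate early sum was 715, and 5296 in G0 CMP pool 2. What part the immediate early genes have in the values of these other probe sets was not tested either.

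**Figure D5:**
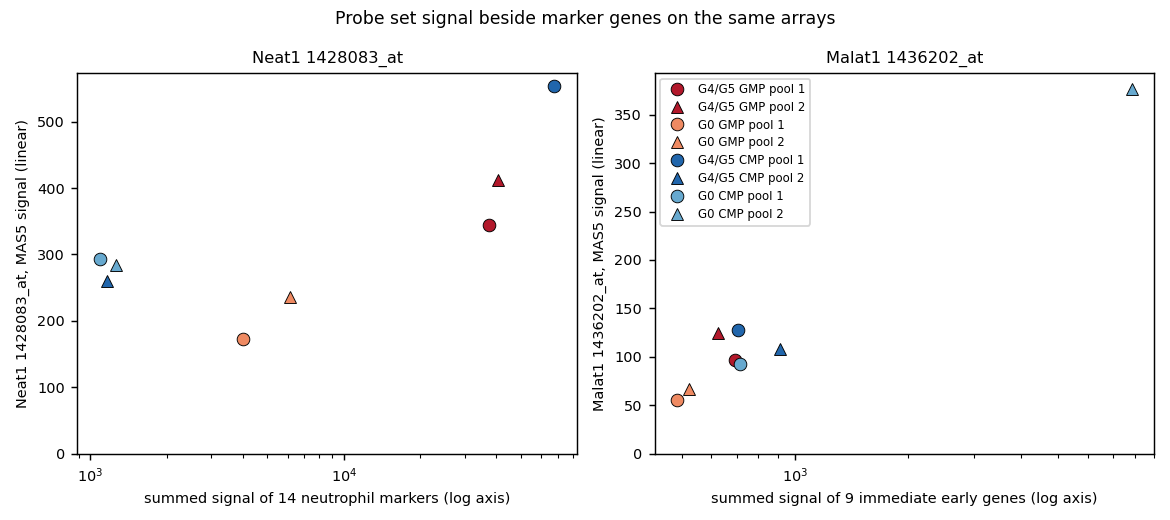
Left, MAS5 signal of Neat1 1428083_at (linear axis) against the summed signal of 14 neutrophil markers (log axis). Right, Malat1 1436202_at against the summed signal of 9 immediate early genes. Each point is 1 of the 8 arrays. The 3 arrays with neutrophil sums of 37427 to 67898 have the 3 highest Neat1 signals, and 1 array, G0 CMP pool 2, is highest on both axes at right.

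Genes that work with these RNAs were tested from lists, each gene by its brightest probe set past the filter, with limma and Benjamini-Hochberg adjustment over all 14743 probe sets and a threshold of 0.05. By genotype in CMP, 5 probe sets of all tested passed (0.0339%), or 3 with the pool number as a replicate block within each cell type, and 14.2% had an unadjusted p under 0.05. In GMP 0 passed by limma (0%), with 1072 (7.27%) at an unadjusted p under 0.05. With only the 4 arrays compared, 0 passed in CMP and 492 in GMP. The difference between both genotype effects (the interaction) also gave 0 by limma (0%), with 615 (4.17%) at an unadjusted p under 0.05.

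Of 33 paraspeckle proteins measured past the filter, 1 fell in G4/G5 CMP and 0 rose. The median difference was -0.05, and 4 of the 33 had an unadjusted p under 0.05. Taf15, an RNA-binding protein related to Ewsr1, had 65.3 and 67.05 in G4/G5 CMP, against 380.0 and 322.7 in G0 CMP. It fell by 2.24 ± 0.20 (SE, n = 2 each) on the log2 scale with adjusted p = 0.0140. The call was lost on the 4 CMP arrays alone (adjusted p = 0.112) and without G0 CMP pool 1 (0.0528), G0 GMP pool 1 (0.0696) or G0 GMP pool 2 (0.0697). In GMP Taf15 had 51.4 and 75.2 in G4/G5, against 208.5 and 249.7 in G0, a difference of -1.72 ± 0.20 with adjusted p = 0.213. A second, dim Taf15 probe set had 12.8 and 12.6 in G4/G5 CMP, against 42.1 and 32.3 in G0 CMP, a difference of -1.05.

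In GMP 0 of the 33 passed by limma, with 4 at an unadjusted p under 0.05 and a median of -0.02. The paraspeckle proteins not passing by genotype included Cirbp, a cold-inducible RNA-binding protein, at 0.59 in CMP and 1.45 in GMP (adjusted p = 0.618 and 0.646). Zc3h6, a zinc finger protein, was at 1.23 in GMP (adjusted p = 0.646). In CMP the chromatin remodelling subunit Smarcc1 and the splicing factor Srsf10 were both at -0.54 (adjusted p = 0.350 and 0.281). Hnrnpf and Hnrnpk, the brightest of the list, differed by 0.06 and 0.15 in CMP and by -0.08 and 0.10 in GMP.

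Of 33 nuclear speckle proteins past the filter, 0 passed by genotype in CMP or GMP by limma, with 3 and 1 at an unadjusted p under 0.05 and medians of -0.08 and -0.07. The largest differences in CMP were -0.82 for U2af2, which helps mark the end of an intron, -0.62 for Pnn, a speckle protein that also lies at cell junctions, and -0.47 for Rbm25 (adjusted p = 0.350, 0.257 and 0.335). In GMP they were 0.62 for the kinase Srpk2, -0.38 for Rbm25 and -0.32 for U2af2. The brightest, Srsf1 and Srsf3, lay between -0.21 and 0.02 in both cell types. A dimmer Pnn probe set, singled out after its values were seen, had 40.0 and 55.1 in G4/G5 CMP, against 190.6 and 197.7 in G0 CMP. It fell by 1.84 ± 0.18 with adjusted p = 0.0196, and the call was lost with the replicate block within cell type (adjusted p = 0.0595), on the 4 CMP arrays alone (0.405), and without G0 CMP pool 1 or any 1 GMP array (0.0528 to 0.116). A further Pnn probe set differed by -0.47 (adjusted p = 0.448). All 3 Pnn probe sets were lower in G4/G5 CMP, and they disagreed in size and in passing the threshold.

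RNase P and RNase Z cut the end of Malat1, and the nuclear exosome trims or destroys nuclear RNAs. Of 24 such genes, 0 passed by genotype by limma in either cell type, with 2 and 3 at an unadjusted p under 0.05 and medians of -0.05 in CMP and -0.18 in GMP. The exosome nuclease Dis3 was at -0.58 and the RNase P subunit Rpp21 at 0.39 in CMP (adjusted p = 0.257 and 0.304), followed by the exosome subunit Exosc5 at 0.37 (adjusted p = 0.447). In GMP the largest were -0.46 for the RNase P subunit Rpp14, -0.37 for Papd5, which adds short tails to nuclear RNAs, and -0.36 for Exosc2 (adjusted p = 0.670, 0.684 and 0.688). The brightest of the list, the poly(A)-binding protein Pabpn1 and the exosome subunit Exosc8, were at -0.06 and -0.12 in CMP and at -0.03 and -0.35 in GMP. Of 18 other long noncoding RNAs, 0 passed by limma, with 1 at an unadjusted p under 0.05 in each cell type and medians of 0.12 in CMP and 0.10 in GMP. Gas5, a host of small nucleolar RNAs, was at 0.53 in CMP (adjusted p = 0.199), Kcnq1ot1, an imprinted antisense RNA, at -0.44 and Snhg7 at 0.42 (adjusted p = 0.419 and 0.416). In GMP the largest were -0.71 for Dleu2, 0.60 for Snhg4, the 1 with an unadjusted p under 0.05, and 0.48 for Snhg7 (adjusted p = 0.688, 0.646 and 0.688). Gas5, at 0.14 in GMP, and Norad, which binds Pumilio proteins and was at 0.14 in CMP and 0.17 in GMP, were the brightest.

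Between GMP and CMP in G0, where 19.3% of all probe sets passed (8.98% higher and 10.3% lower), the cutting and trimming genes were mostly higher in GMP. Of the 24, 10 rose and 1 fell, with a median of 0.37 beside -0.05 over all probe sets. Exosc8, a core exosome subunit, had 1450.3 and 1274 in G0 GMP, against 870.1 and 718.7 in G0 CMP, a difference of 0.77 ± 0.15 with adjusted p = 0.0129. Exosc1, 2, 3, 5 and 7, Dis3, Rpp14, Rpp30 and Pop4 also rose, and Zcchc7, which helps feed RNAs to the exosome, fell. The count of 11 came to 0 without G0 GMP pool 1, to 0 without G0 GMP pool 2, to 3 without G0 CMP pool 2 and to 4 without either G4/G5 GMP array. It was 4 without the signal filter and 7 on the 4 G0 arrays alone. In G4/G5, where 9.14% of all probe sets passed (3.7% higher and 5.45% lower), Dis3 rose (1.09 ± 0.19, adjusted p = 0.0133) and no other gene of the 24 passed. That call was lost without either G4/G5 GMP array.

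Of the 33 paraspeckle proteins, by the brightest probe set of each, 1 rose and 4 fell in GMP against CMP in G0. In G4/G5, 0 of these passed by limma and 9 had an unadjusted p under 0.05, beside 27.9% of all probe sets. Over all 80 paraspeckle probe sets tested, 1 was higher and 9 were lower in G0, among the lower dimmer ones of Sfpq, Cpsf6 and Hnrnpr. In G4/G5, 1 was higher and 2 were lower, dimmer probe sets of Srsf10, Sfpq and Cpsf6. Nudt21 and Cpsf6, partners in placing poly(A) sites, moved in opposite directions, 0.61 ± 0.14 for Nudt21 (adjusted p = 0.0225) and -0.50 ± 0.13 for Cpsf6 (adjusted p = 0.0309). Hnrnpul1, Rbmx and Zc3h6 also fell. The count of 5 was 0 without G0 CMP pool 2 or either G0 GMP array, 1 without either G4/G5 GMP array and 8 without either G4/G5 CMP array, and with the replicate block within cell type it was 8 in G0 and 3 in G4/G5. In G0 it was 1 without the signal filter, 2 without the intensity trend and 8 with quantile normalization. Among speckle proteins, by the brightest probe set of each, Srsf9 and the kinase Srpk1 rose and the kinase Clk1 fell in G0. The same 2 kinases passed in G4/G5, where Clk1 had 731.7 and 803.8 in GMP, against 1143 and 1302 in CMP, and Srpk1 again rose. Over all 106 speckle probe sets tested, 2 were higher and 10 lower in G0, beside 8.98% and 10.3% of all probe sets. Probe sets of Prpf4b, Rbm25, Srsf3, Sf3b1, Tra2b and Thrap3 were among the lower. In G4/G5, 3 were higher and 1 was lower, with dimmer probe sets of Pnn and Srrm1 among the higher. Of the speckle calls by brightest probe set, none in G0 held without either G0 GMP array. None in G4/G5 held without any 1 GMP array, without the signal filter, without the intensity trend or on the 4 G4/G5 arrays alone. Among other noncoding RNAs Snhg3 rose in G0 GMP and Gas5 fell in G4/G5 GMP (-0.82 ± 0.14, adjusted p = 0.0116). The Snhg3 call was lost without G0 CMP pool 2, any 1 GMP array or the signal filter, and the Gas5 call without either G4/G5 GMP array.

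Of 5 transcription factors listed for reported action on Malat1 or Neat1, 3 were measured here, and 0 passed by genotype by limma, with 1 at an unadjusted p under 0.05 in each cell type. Hif1a, the oxygen-regulated subunit of the factor that binds ACGTG, had 528.6 and 443.8 in G4/G5 CMP, against 551.0 and 480.9 in G0 CMP. It rose in GMP against CMP in G4/G5 (0.75 ± 0.16, adjusted p = 0.0302), a call lost without G4/G5 CMP pool 2 or either G4/G5 GMP array, and also without the signal filter, without the intensity trend and on the 4 G4/G5 arrays alone. By genotype in GMP it was at 0.25. Arnt, its partner subunit, was at -0.45 in CMP and 0.53 in GMP by genotype (adjusted p = 0.349 and 0.646), and Atf2 was at -0.02 and 0.01.

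Of the annotated genes nearest to the pair, 6 were analysed here, and 0 passed by genotype by limma, with 0 at an unadjusted p under 0.05 in either cell type. By genotype in CMP, Znrd2 was at -0.04 and Ltbp3, which binds latent TGF-beta, at -0.22 on the Malat1 side. On the Neat1 side Frmd8 was at 0.07, Slc25a45 at -0.11, Tigd3 at -0.21 and the chromatin protein Dpf2 at 0.13. In GMP the largest was -0.39 for Frmd8, followed by -0.20 for Znrd2 and -0.09 for Ltbp3. Ltbp3 and Dpf2 fell in GMP against CMP in G0, at -0.79 ± 0.21 and -0.64 ± 0.16 (adjusted p = 0.0333 and 0.0300), and Dpf2 also in G4/G5 (-0.72 ± 0.16, adjusted p = 0.0331). These calls were lost without any 1 GMP array, and also without G0 CMP pool 2 in G0 and without G4/G5 CMP pool 2 in G4/G5. Without the signal filter they were lost too, and the G4/G5 call was also lost without the intensity trend and on the 4 G4/G5 arrays alone.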

How the data were processed

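RNA of 8 pools of sorted CMP and GMP cells (5000 to 20000 cells, labelled from 5 to 10 ng) was hybridised to Affymetrix Mouse Genome 430 2.0 arrays. Per the submitters' processing notes and the series text, the authors made the deposited intensity values with MAS5 at a target signal of 100, and the mean of each array after trimming 2% at each end was 100.001. Background settings and detection calls are not given in the sources used here, and the number of arrays limits the precision.

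The 64 control probe sets, 932 probe sets with several symbols and 9160 with none were left out. log2(signal + 10) was fitted with limma 3.58.1 in R 4.3.3, 1 mean per group over 8 arrays (4 residual degrees of freedom), with an intensity trend. Tables and figures used Python 3.11.15, pandas 2.3.3 and matplotlib 3.10.9. The fit was tested on simulated data with independent errors, of the same spread for a probe set in all groups. That simulation held no array that stands apart and no unequal spread between cell types. It could not test the fit under these. The p-values set a group difference against the spread between pools, taken over all 4 groups and drawn toward that of other probe sets. The median log2 gap between the 2 pools was 0.28 in G4/G5 CMP and 0.26 in G0 CMP. It was 0.13 in G4/G5 GMP and 0.15 in G0 GMP. The shared spread thus tends to understate the SE of a genotype difference in CMP and to overstate it in GMP.

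Malat1, Neat1 and the gene lists were chosen with earlier results of these data known. Named were all probe sets of both genes, all neighbours analysed here, and of each list the genes passing, and for each genotype comparison the 3 largest differences and 2 brightest genes among those not passing. The nearest 5 genes were named for likeness. Alternatives were other pseudocounts, filters and scalings, 1 probe set per gene, a replicate block, only the arrays compared, and each array left out.

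The series text pairs G4/G5 and G0 pools of 1 number by age and sex. The deviations of same-numbered pools correlated over probe sets at 0.27 in CMP and 0.16 in GMP, a check with only 2 pairs in each.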

Additional observations from a re-analysis of the deposited data

Results flagged for a closer look

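The brightest Malat1 probe set, 1418189_s_at, differed between the cell types in opposite directions in the 2 genotypes. Both G4/G5 GMP arrays (2271 and 2621) were above both G4/G5 CMP arrays (1762 and 2256), a log2 difference of 0.29, which came to 0.11 without G4/G5 CMP pool 1, the array rich in neutrophil markers, and to 0.47 without G4/G5 CMP pool 2. Both G0 GMP arrays (2627 and 2788) were below both G0 CMP arrays (4320.2 and 5296), a log2 difference of -0.82. The difference between the genotypes was not tested, since the gene was chosen with these values known. Of the 9 probe sets it was the only one with opposite directions and no overlap in both genotypes. In G4/G5 the groups were barely apart, at 2271 against 2256, and the SE of the 0.29 was 0.16. Malat1 1418188_a_at, designed from the same sequence entry, was at -0.12 ± 0.18 in G4/G5, with overlap.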

How the results depend on the processing

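Scalings and pseudocounts kept the sign of the brightest Malat1 probe set, 1418189_s_at, in each comparison. Signal filters, the intensity trend and a replicate block leave a difference of group means as it was, so they could not test it. Over all alternatives tried, arrays left out included, its genotype difference lay between -1.44 and -1.08 in CMP and between -0.25 and -0.05 in GMP. That of Neat1 1428083_at in GMP stayed between 0.66 and 1.08, and in CMP it was -0.14 to 0.92 with 1 array left out. Counts of probe sets passing moved much more. By genotype in CMP, 5 became 3 with a pseudocount of 1, 11 with quantile normalization, 3 without the signal filter, 3 with a replicate block within each cell type, 1 with 1 probe set per gene and 0 on the 4 CMP arrays alone (961 at an unadjusted p under 0.05), and ran from 0 (without either G0 GMP array) to 696 (without G4/G5 CMP pool 2) with 1 array left out. By genotype in GMP, 0 became 1 without the intensity trend and 492 on the 4 GMP arrays alone, and ran from 0 to 49. Between cell types in G0, 2844 became 1753 without the filter and 1845 with 1 probe set per gene, and ran from 126 to 4058. In G4/G5, 1348 became 599 without the filter, 2225 with that block and 573 on the 4 arrays alone, and ran from 76 to 2104. The interaction ran from 0 to 8. The paraspeckle count in CMP was 0 on the 4 arrays alone and 0 to 2 with 1 array left out; in GMP it was 3 on the 4 arrays alone (Cirbp, Taf15 and Zc3h6) and 0 to 1. With 1 array left out, the speckle count in CMP was 0 to 2 and that of other noncoding RNAs 0 to 1, and the 4 GMP arrays alone gave 1 noncoding RNA, Snhg4. Between cell types, that block also gave 3 noncoding RNAs in G0 in place of 1, and 2 each in place of 1 in G4/G5 for noncoding RNAs, neighbours and the exosome list; it changed no other count of a list by over 1.5 times. Other settings moved the cell-type counts of lists too: without the signal filter the G0 counts were 4 in place of 11 for the exosome list, 1 in place of 5 for paraspeckle proteins, 0 in place of 2 for neighbours and 0 in place of 1 for noncoding RNAs, and the G4/G5 counts were 0 in place of 2 for speckle proteins and 0 in place of 1 for neighbours and for transcription factors. Those 3 G4/G5 counts were also 0 without the intensity trend and on the 4 arrays alone. The G0 count of noncoding RNAs was 2 with a signal filter of 100 and on the 4 arrays alone, and that of neighbours 1 without probe sets of the _x_at and _s_at types. The causes were not tested. A group left with 1 array is assumed to vary like the others.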
